A study of Mus musculus with 12 samples.

Results

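MC38 tumors that received PB-020 together with an anti-PD-1 antibody were set against tumors that received vehicle (CK), gene by gene. The comparison holds 6 of the 12 libraries of the series, 3 tumors a side, and the members are the libraries that the labels assign to these treatments. MC38 is a mouse colorectal adenocarcinoma cell line of C57BL/6 origin, and each library is total RNA of 1 whole tumor grown under the skin of a C57BL/6 mouse. The hosts were female and 5 weeks old, were described without any engineered allele, and were divided into groups on day 7. CK mice received vehicle alone. The daily oral dose of PB-020 was 50 mg/kg, and the anti-PD-1 antibody, clone RMP1-14, followed on days 9, 12, 15 and 18. In the last volumes that the paper gives, every tumor treated with PB-020 and anti-PD-1 was smaller than every vehicle tumor. The paper does not state which of these tumors were sequenced, so size could not be entered in the model. Size thus differed along with treatment, and its part in the changes below was not tested. The other 6 libraries, 3 from PB-020 alone and 3 from anti-PD-1 alone, are used to show where the single treatments lay. The genes of the PI3K/AKT pathway that the study drew were left out when named genes were picked over all genes. They were not removed from the counts over all genes, by list or by chromosome. The description turns to the rest of the transcriptome.

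PD-1 is an inhibitory receptor of activated T cells. When its ligands are kept from binding it, T cells in a tumor can go on dividing, killing and secreting interferon gamma. Interferon gamma in turn acts on most cells of a tumor and switches on chemokines that attract T cells, guanylate-binding proteins that attack intracellular pathogens, and the machinery that loads peptides on MHC class I. PB-020 inhibits IGF-1R, a receptor tyrosine kinase for insulin-like growth factors that drives growth and survival signaling in tumor and stromal cells.

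The 6 libraries held between 16545394 and 17217035 expected counts, with a median of 16912536, so depth differed little. Markers of colon epithelium were near absent, since 5 of the 22 listed genes had enough reads to be tested and the FPKM values of the list summed to between 8.15 and 12.3 in every library of the series. CK tumor 3 stood apart in neutrophil genes, with a summed level of 480.0 FPKM against 22.1 to 62.9 in the other 11 libraries, and in adipocyte genes, with 375.0 against 36.2 to 93.9. Anti-PD-1 tumor 1 stood apart in skeletal muscle genes, with a summed level of 863.0 FPKM against 17.5 to 97.8 in the other 11 libraries. It enters the comparison only through the shared estimate of the spread between tumors. In bulk tumors, fewer cells of a type and less RNA per cell cannot be told apart.

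Two-sided edgeR quasi-likelihood tests over 13563 genes called 1132 genes raised (8.35%) and 1302 lowered (9.6%) at a Benjamini-Hochberg adjusted p under 0.05. These shares are the background against which each gene group is read. Most changes were small, with a median fold of 1.39 among the raised genes and 1.32 among the lowered genes. A change of more than 2-fold was seen in 185 raised and 130 lowered genes, and of more than 4-fold in 28 and 24. At the thresholds of the study's methods, a fold over 1.5 with an unadjusted p under 0.05, 671 genes (4.95%) passed as raised and 484 (3.57%) as lowered. In 2653 genes (19.6%) the 3 PB-020/anti-PD-1 tumors all lay above the 3 CK tumors, and in 2871 (21.2%) they all lay below. The counts rested on single libraries: without CK tumor 2 the calls numbered 329 raised and 535 lowered, without CK tumor 3 738 and 839, without PB-020/anti-PD-1 tumor 1 460 and 625, and without PB-020/anti-PD-1 tumor 2 533 and 627. A core of 724 genes, 273 raised and 451 lowered, kept its call in each of the 6 fits that left out 1 library, and the called genes named below belong to it unless a loss is stated.

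**Figure D1:**
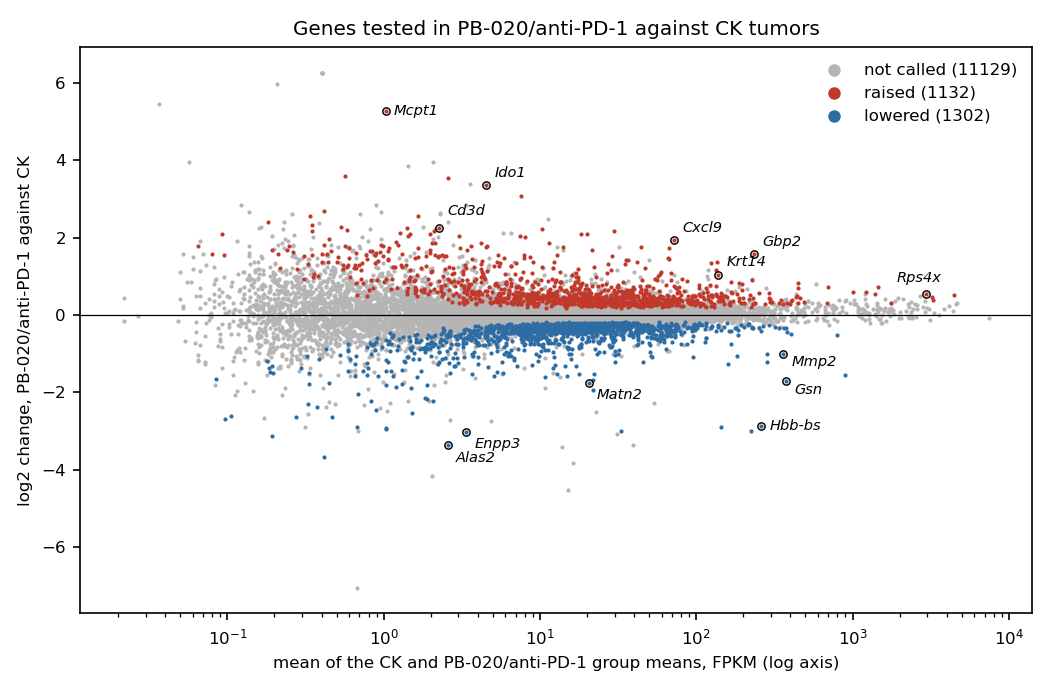
Each point is one of the 13563 genes tested, with the mean of the 2 group means in FPKM on a log axis and the log2 change in PB-020/anti-PD-1 tumors against CK on the y axis. The 1132 raised genes (red) and the 1302 lowered genes (blue) lie on both sides of 0 at every level of expression, with Mcpt1 and Ido1 among the most raised and Alas2, Enpp3 and Hbb-bs among the most lowered of the named genes.

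T cell genes formed the list with the highest share of raised members. Of 19 tested members of the T cell receptor and identity list, 15 rose and 0 fell, with a median log2 change of 1.55 against -0.003 over all genes tested. Cd3d (chromosome 9, 44981769 to 44987052, GRCm38), which encodes a chain of the CD3 signaling complex, measured 0.69, 0.70 and 1.05 FPKM in the CK tumors, against 2.55, 5.03 and 3.54 after treatment with both agents. The groups did not overlap, with means of 0.813 ± 0.205 and 3.71 ± 1.25 FPKM (SD, n = 3), and the gene rose by 2.25 on the log2 scale (SE 0.44, adjusted p = 0.0057). Themis, a protein needed for thymocyte selection, was at 0.14, 0.18 and 0.08 FPKM in CK and at 0.47, 0.92 and 0.70 in PB-020/anti-PD-1 tumors, a log2 change of 2.69 (SE 0.42, adjusted p = 0.0026). Bcl11b, a transcription factor that fixes T cell identity, rose by 2.41 (SE 0.52, adjusted p = 0.0087). Tcf7, the factor of naive and stem-like T cells, did not follow, with a log2 change of 0.12, the lowest of the list. The number of raised T cell genes fell to 8 without CK tumor 2 and to 9 without PB-020/anti-PD-1 tumor 2.

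Several lymphocyte receptors of the NK complex and a part of the effector genes were also higher. Klrd1 (CD94), which pairs with NKG2 proteins on NK and CD8 T cells, measured 2.78, 2.39 and 4.02 FPKM in CK and 8.99, 15.43 and 11.23 in PB-020/anti-PD-1 tumors. Its log2 change was 2.03 (SE 0.37, adjusted p = 0.005). Klrk1, the activating receptor NKG2D, rose by 1.77 (SE 0.30, adjusted p = 0.0042) and Klrc1, its inhibitory relative NKG2A, by 1.78 (SE 0.35, adjusted p = 0.0081). Ifng (chromosome 10, 118441046 to 118445894), the interferon gamma gene, stood at 0.82, 0.72 and 0.73 FPKM in CK while the treated tumors stood at 2.03, 3.91 and 3.61. Each treated tumor was thus above each CK tumor, and the log2 change was 2.08 (SE 0.45, adjusted p = 0.0094). Of 21 tested cytotoxic genes, 16 had a positive change and 5 a negative one. The summed level of that list overlapped between the groups, at 383.0, 163.0 and 296.0 FPKM in CK and 232.0, 395.0 and 320.0 after treatment. In all, 10 of these 21 genes and 6 of 14 tested NK cell genes were called raised and 0 lowered. The cytotoxic count was 6 without CK tumor 1 or without PB-020/anti-PD-1 tumor 1, 5 without PB-020/anti-PD-1 tumor 2 and 3 without CK tumor 2, and the NK count was 4 without CK tumor 2 or without PB-020/anti-PD-1 tumors 1 or 2.

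Among the genes of the killing proteins, Gzma (granzyme A) rose from 2.98 ± 0.90 to 7.68 ± 1.52 FPKM (SD, n = 3; adjusted p = 0.025), a call lost without CK tumors 2 or 3 or PB-020/anti-PD-1 tumors 1 or 2 (adjusted p up to 0.11). Gzmb (granzyme B) measured 21.76, 8.54 and 17.89 FPKM in CK and 22.94, 31.84 and 27.83 in PB-020/anti-PD-1 tumors, with a log2 change of 0.79 (SE 0.41) that did not pass (adjusted p = 0.21). Prf1 (perforin) overlapped between the groups, at 7.17 ± 2.97 and 8.21 ± 1.79 FPKM (SD, n = 3; adjusted p = 0.79). Eomes, a T-box factor of effector and memory T cells, had 2.73 ± 0.438 FPKM in CK and 2.51 ± 0.188 after treatment (SD, n = 3; adjusted p = 0.66), while its relative Tbx21 (T-bet) rose from 0.337 ± 0.115 to 1.0 ± 0.052 FPKM (SD, n = 3; adjusted p = 0.02), a call lost without CK tumors 1 or 2 or PB-020/anti-PD-1 tumors 1 or 2 (adjusted p up to 0.095).

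Inhibitory receptors of T cells rose with the lineage genes. Ctla4 (chromosome 1, 60909025 to 60915832), which competes with CD28 for its ligands, measured 0.88, 0.83 and 1.04 FPKM in CK and 3.67, 3.38 and 2.91 in PB-020/anti-PD-1 tumors. The log2 change was 1.87 (SE 0.35, adjusted p = 0.0046). Cd160 rose by 1.78 (SE 0.40, adjusted p = 0.011). Tigit and Lag3 rose by 1.44 (adjusted p = 0.011) and 1.23 (adjusted p = 0.017), calls that were lost without CK tumor 2 and, for Lag3, CK tumor 3. The count of raised checkpoint receptors went from 8 of 16 tested to 2 without CK tumor 2 and to 5 without PB-020/anti-PD-1 tumor 2. Of the ligands, Cd80 and Cd86, which bind CTLA4 and CD28, rose by 0.94 (adjusted p = 0.024) and 0.71 (adjusted p = 0.021). Both calls were lost without CK tumor 2 or PB-020/anti-PD-1 tumors 1 or 2, and that of Cd80 also without CK tumor 1. Cd274, which encodes PD-L1, measured 8.50, 6.16 and 15.39 FPKM in CK and 15.62, 20.17 and 17.53 after treatment, where the lowest treated tumor lay just above the highest CK tumor and the change did not pass (adjusted p = 0.13).

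**Figure D2:**
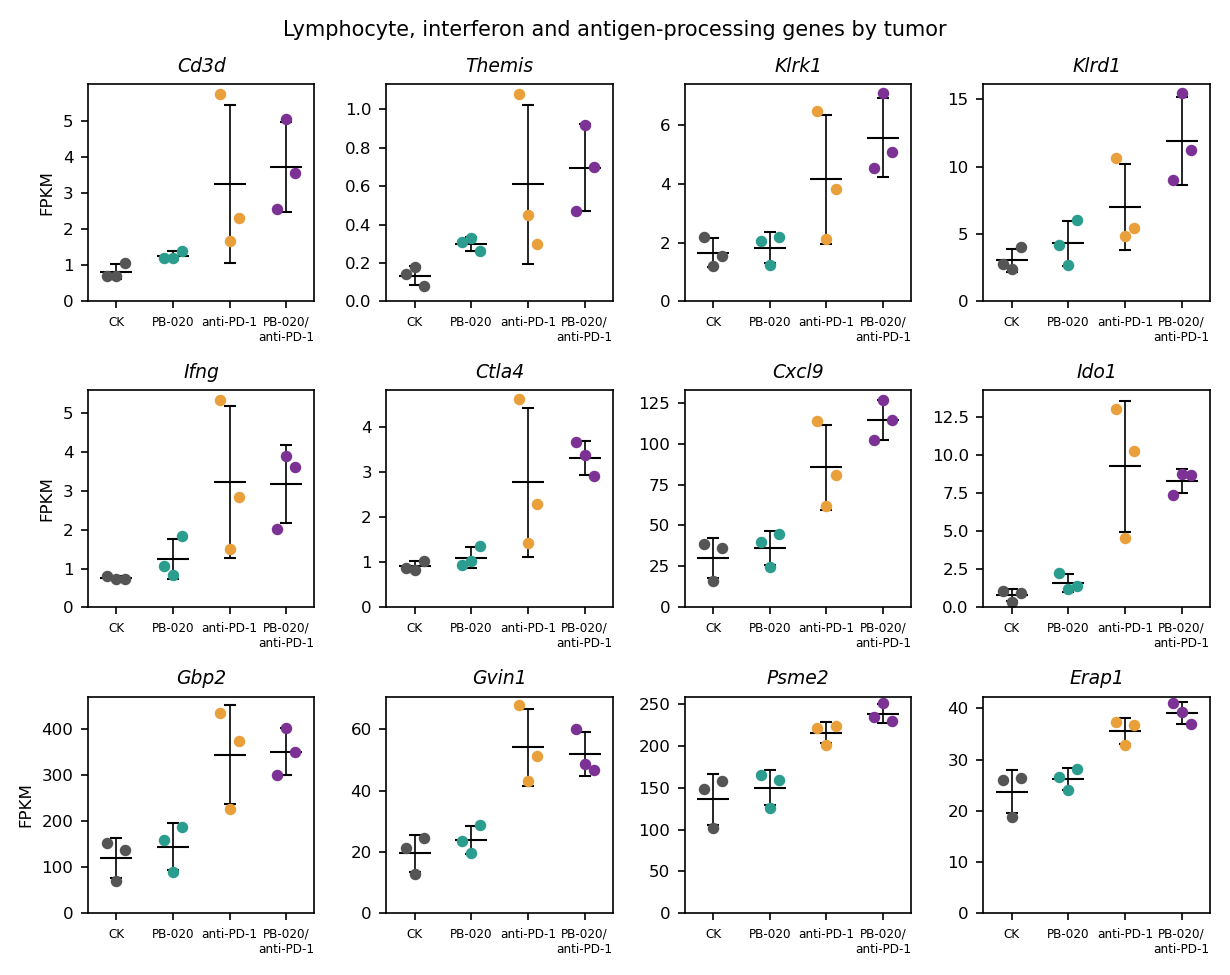
FPKM of 12 genes in each tumor of the 4 groups, on axes that start at 0, with horizontal bars for the group mean and error bars for the SD (n = 3). The PB-020/anti-PD-1 tumors lie above the CK tumors in all 12 panels, and in each panel but Psme2 anti-PD-1 tumor 1 is the highest of the anti-PD-1 tumors.

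Interferon gamma targets rose, led by Ido1. Ido1 (chromosome 8, 24584133 to 24596952), which degrades tryptophan along the kynurenine pathway, measured 1.10, 0.38 and 0.92 FPKM in CK and 7.34, 8.74 and 8.69 in PB-020/anti-PD-1 tumors. Means were 0.80 ± 0.375 and 8.26 ± 0.794 FPKM (SD, n = 3), and the gene rose 10.3-fold, or 3.36 on the log2 scale (SE 0.44, adjusted p = 0.0023). Cxcl9, a CXCR3 ligand that recruits T cells, stood at 38.65, 16.36 and 35.99 FPKM in CK and at 102.27, 126.89 and 114.46 after treatment, a log2 change of 1.94 (SE 0.36, adjusted p = 0.01). The related ligand Cxcl10 had non-overlapping groups as well, at 75.0 ± 44.9 and 164 ± 20.9 FPKM (SD, n = 3), but CK tumor 3 reached 123.46 and the change did not pass (adjusted p = 0.086). Gvin1, a very large interferon-inducible GTPase, rose by 1.42 (SE 0.26, adjusted p = 0.0076). Of 15 tested genes of interferon gamma signaling, 7 rose and 1, the kinase gene Jak1, fell by 0.19 on the log2 scale, a call kept only without PB-020/anti-PD-1 tumor 3 among the fits that left out 1 library. That raised count was 3 without CK tumor 1 and 2 without CK tumor 2 or any 1 of the PB-020/anti-PD-1 tumors.

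The guanylate-binding proteins and immunity-related GTPases are cell-autonomous defense proteins. In 17 of their 18 tested members the 3 treated tumors lay above the 3 CK tumors, and 10 of the 18 were called raised and 0 lowered (median log2 change 1.09). Gbp2 measured 151.84, 70.19 and 136.73 FPKM in CK and 298.70, 401.75 and 349.78 in PB-020/anti-PD-1 tumors, a log2 change of 1.57 (SE 0.38, adjusted p = 0.024). The call was lost without CK tumors 2 or 3 or PB-020/anti-PD-1 tumors 1 or 2 (adjusted p up to 0.074), and CK tumor 2 was the lowest of the 6. The raised count of this family was 5 without CK tumor 1, 1 without CK tumor 2, 4 without CK tumor 3, 2 without PB-020/anti-PD-1 tumor 1 or 2 and 4 without PB-020/anti-PD-1 tumor 3. Genes of the type I interferon response had a positive change in 25 of 25 tested, against 49.6% of all genes, with a median of 0.66. In only 2 of the 25 did all treated tumors lie above the CK tumors, which held for 19.6% of all genes. Called raised was 1 (4.0%, against 8.35% of all genes), Zbp1. Its call was kept only without CK tumor 3 among the fits that left out 1 library. Isg15, a ubiquitin-like protein, overlapped between the groups at 30.94, 19.91 and 78.25 FPKM in CK and 131.52, 53.56 and 49.61 after treatment. PB-020/anti-PD-1 tumor 1 and CK tumor 3 were the high ones of each group, and without CK tumor 3 the raised count of that list was 5.

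Promoters of these interferon targets were read from the RefSeq promoter table (GRCm38.p6) to show the elements through which such genes are known to respond. A window is the 250 bases before a transcript's start. The interferon-stimulated response element was searched as GAAA, any 2 bases and GAAA again, and the gamma-activated site as TTCNNNGAA, on both strands and with overlaps allowed. The 4 windows below belong to the 3 GTPase genes Gbp7, Gbp2 and Tgtp1 and to Irf1, an interferon-induced transcription factor. They are printed 5′ to 3′ on the gene's own strand, with matches in capitals.
Gbp7 (chr3:142530086-142530335, plus strand): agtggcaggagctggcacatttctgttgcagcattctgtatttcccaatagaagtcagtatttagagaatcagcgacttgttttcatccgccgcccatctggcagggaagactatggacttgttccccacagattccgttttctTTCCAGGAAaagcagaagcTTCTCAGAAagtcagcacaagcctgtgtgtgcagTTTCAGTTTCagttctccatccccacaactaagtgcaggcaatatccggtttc
Gbp2 (chr3:142620413-142620662, plus strand): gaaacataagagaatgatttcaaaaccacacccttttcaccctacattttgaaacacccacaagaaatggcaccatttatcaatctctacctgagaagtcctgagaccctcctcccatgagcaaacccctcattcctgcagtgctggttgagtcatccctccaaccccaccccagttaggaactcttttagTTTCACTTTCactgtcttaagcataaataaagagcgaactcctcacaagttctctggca
Tgtp1 (chr11:48992247-48992496, minus strand): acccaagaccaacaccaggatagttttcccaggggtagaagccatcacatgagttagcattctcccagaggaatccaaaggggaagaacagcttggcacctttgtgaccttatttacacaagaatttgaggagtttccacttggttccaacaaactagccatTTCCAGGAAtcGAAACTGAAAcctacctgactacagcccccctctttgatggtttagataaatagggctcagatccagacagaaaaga
Irf1 (chr11:53769764-53770013, plus strand): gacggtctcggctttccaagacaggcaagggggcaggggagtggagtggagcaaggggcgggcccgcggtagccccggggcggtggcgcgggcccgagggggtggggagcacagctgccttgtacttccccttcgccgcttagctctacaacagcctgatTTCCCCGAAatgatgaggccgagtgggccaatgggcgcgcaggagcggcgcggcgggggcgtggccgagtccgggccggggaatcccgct

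In Gbp7 the response element lay between 53 and 44 bases before the start, with 2 gamma-activated sites further upstream, and in Gbp2 it lay between 59 and 50 bases before the start. Tgtp1 carried both elements side by side, and its near-identical neighbor Tgtp2 makes its counts uncertain. Irf1 carried a gamma-activated site between 90 and 82 bases before the start and no response element in this window. The windows of Cxcl9, Psme2 and Erap1 held neither motif. The calls of Gbp7 (log2 change 1.20), Tgtp1 (1.73) and Irf1 (0.69), with adjusted p values of 0.03, 0.035 and 0.027, were each lost without CK tumor 2 or any 1 of the PB-020/anti-PD-1 tumors, that of Gbp7 also without CK tumor 1 and that of Tgtp1 without CK tumor 3. Over 10732 tested genes with a promoter in the table, 3.37% held a response element, and all 32851 windows of the table held one in 2.98%. Among genes raised more than 2-fold it was found in 16 of 126 (12.7%), among genes lowered more than 2-fold in 0 of 87, and in the GTPase list in 9 of 10 matched genes. The gamma-activated site was more common, in 7.3% of tested genes, in 24 of 126 raised more than 2-fold and in 8 of 87 lowered more than 2-fold. Over all raised genes with a promoter, 49 of 862 (5.68%) held a response element and 69 (8.0%) a gamma-activated site. Of 14 matched genes of the MHC class I list, 1 held a response element and 1 a gamma-activated site. A match describes the letters of a window, and binding was not measured.

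Genes that cut, carry and load peptides for MHC class I rose by modest amounts. Psme2, a subunit of the interferon-inducible proteasome activator, measured 148.67, 101.67 and 158.35 FPKM in CK and 234.52, 251.68 and 229.75 in PB-020/anti-PD-1 tumors, a log2 change of 0.82 (SE 0.15, adjusted p = 0.0053). Its partner Psme1 rose by 0.55 (SE 0.11, adjusted p = 0.0069). Erap1, which trims peptides in the endoplasmic reticulum, rose from 23.8 ± 4.29 to 39.1 ± 2.12 FPKM (SD, n = 3; log2 change 0.73, SE 0.11, adjusted p = 0.0024), and Tapbpl, a peptide editor related to tapasin, rose by 0.83 (SE 0.18, adjusted p = 0.01). The classical heavy chains were already abundant in CK and moved little: H2-K1 was at 863 ± 168 and 1054 ± 50.2 FPKM (SD, n = 3; adjusted p = 0.16), and H2-D1 at 891 ± 118 and 1142 ± 13.1 (SD, n = 3; adjusted p = 0.054). Of 17 tested members of the list 10 rose and 0 fell, a count that was 5 without CK tumor 1, 6 without CK tumor 2, 4 without PB-020/anti-PD-1 tumor 1 or 2 and 6 without PB-020/anti-PD-1 tumor 3. H2-Q6, a nonclassical class I gene, had the smallest p of all raised genes and went from 2.98, 3.62 and 2.96 to 13.19, 11.95 and 13.10 FPKM (log2 change 2.01, SE 0.23, adjusted p = 0.00095). Reads of the H2-Q genes can be divided between near-identical copies, so its level is uncertain.

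Macrophage and monocyte genes were called raised about as often as all genes (9.09% against 8.35%). Of 22 tested 2 rose, the monocyte antigen gene Ly6c2 by 2.10 and the matrix protein gene Spp1 by 0.50, and 0 fell. Both calls were lost without CK tumor 2 or PB-020/anti-PD-1 tumors 1 or 2, that of Ly6c2 also without CK tumor 1 and that of Spp1 without CK tumor 3. Adgre1, which encodes the macrophage antigen F4/80, overlapped, at 16.32, 15.76 and 24.71 FPKM in CK and 16.91, 20.37 and 19.61 after treatment (adjusted p = 0.95). Of 17 dendritic cell genes, 2 rose (11.8%, against 8.35% of all genes), Xcr1 by 1.07 and Irf8 by 0.59. Each of these calls was lost in every fit that left out 1 of the 6 libraries. Of the 10 tested neutrophil genes 0 were called by edgeR, while DESeq2 called 1 lowered. The list's median of -0.98 moved with CK tumor 3, where S100a8, a calcium-binding protein of neutrophils, stood at 163.03 FPKM against 2.42 to 2.60 in the other CK tumors and 1.76 to 12.41 in the treated tumors. Of 5 tested B and plasma cell genes 0 were called by edgeR, and DESeq2 called 1 raised. Without CK tumor 3 the neutrophil list had 3 raised members, and without CK tumor 1 it had 1 lowered.

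Proteases of mucosal mast cells rose. Mcpt1 (chromosome 14, 56017964 to 56020391) measured 0.07, 0.07 and 0 FPKM in CK and 2.05, 2.33 and 1.68 in PB-020/anti-PD-1 tumors (adjusted p = 0.002). Because the 6 libraries held between 0 and 34 reads of it, no fold is given. The adjacent gene Mcpt2 was at 0.92, 0.93 and 0.44 FPKM in CK and at 3.07, 3.95 and 3.23 after treatment (log2 change 2.16, SE 0.42, adjusted p = 0.0055). Among 7 tested genes of the mast cell and basophil list, which holds neither, 0 rose. Cpa3, the mast cell carboxypeptidase, overlapped at 1.92 ± 0.497 and 2.30 ± 1.28 FPKM (SD, n = 3; adjusted p = 0.75), and the factor Gata2 fell by 0.69 on the log2 scale (adjusted p = 0.013, lost without PB-020/anti-PD-1 tumor 1).

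**Figure D3:**
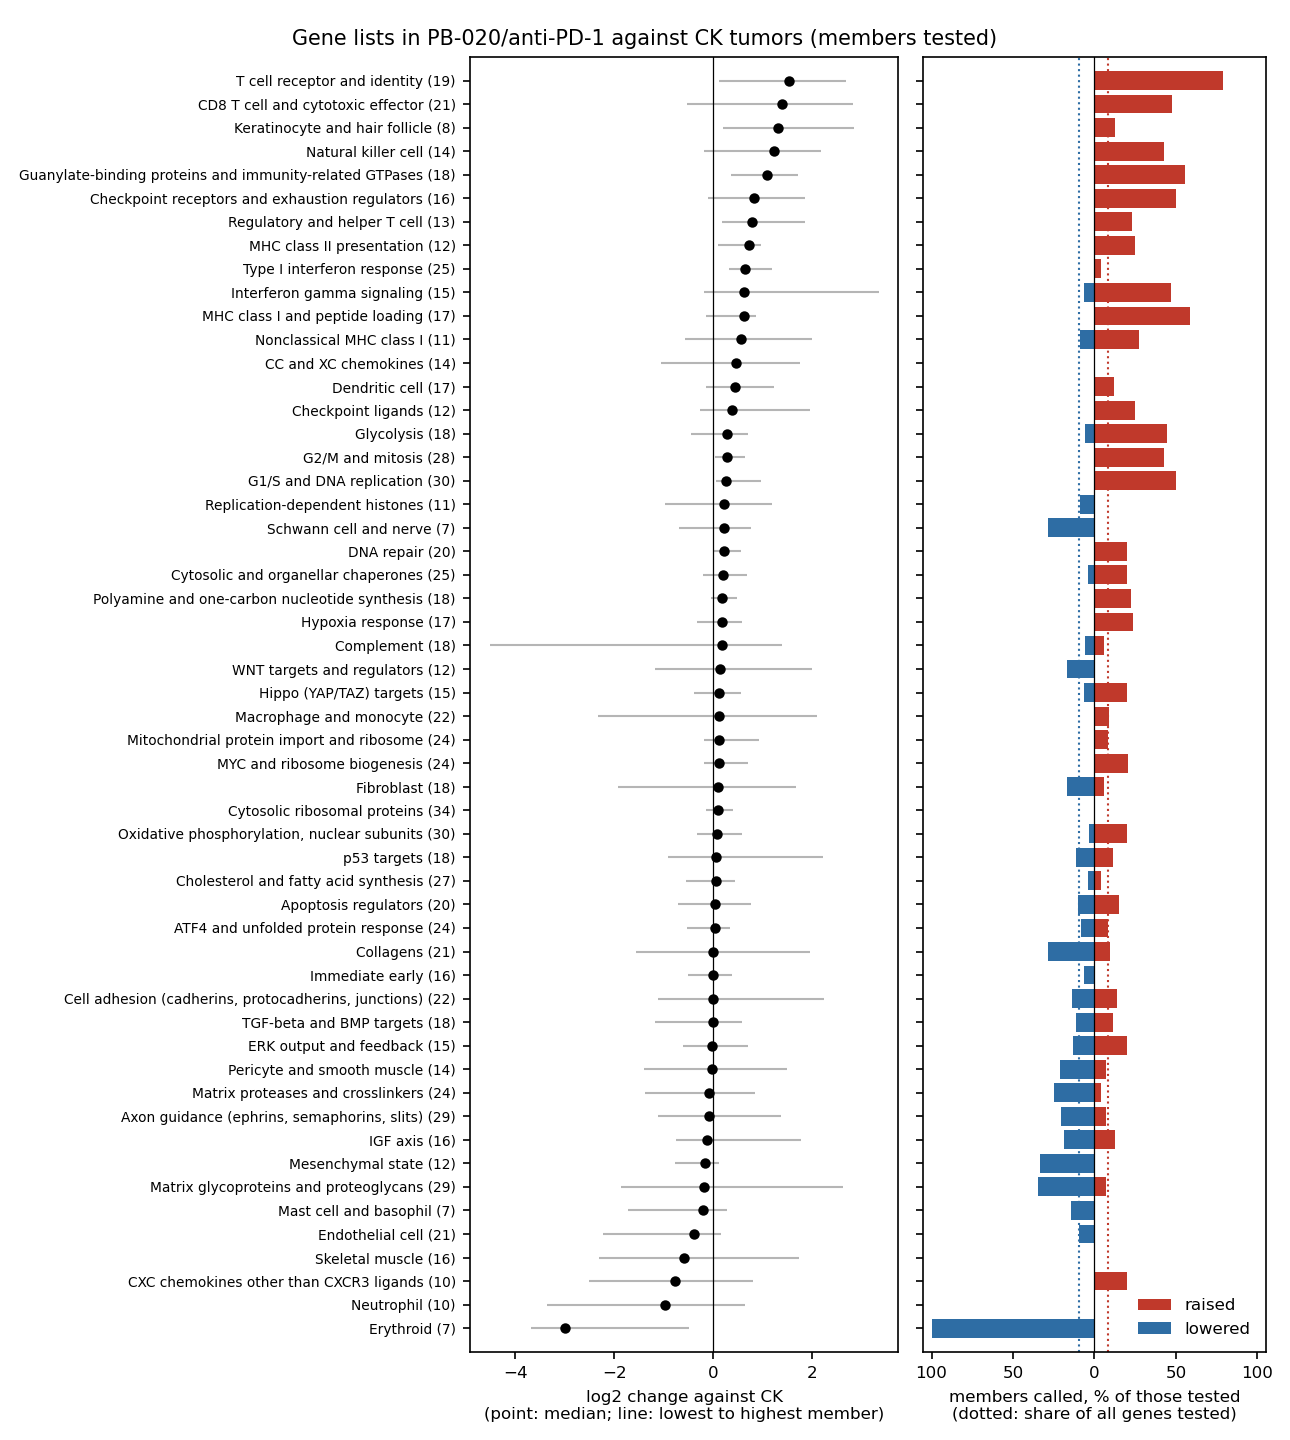
Gene lists with at least 7 tested members, ordered by median log2 change in PB-020/anti-PD-1 tumors against CK. The left panel gives the median (point) and the range from the lowest to the highest member (line), the right panel the percent of tested members called raised (red) or lowered (blue), with dotted lines at the shares over all genes tested (8.35% and 9.6%). T cell genes stand at the top with 78.9% raised, and erythroid genes at the bottom with each of the 7 tested members lowered.

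Cell cycle genes rose by small amounts across the phases. Top2a, the topoisomerase of dividing cells, measured 173.70, 143.12 and 145.76 FPKM in CK and 254.42, 235.72 and 227.91 in PB-020/anti-PD-1 tumors, a log2 change of 0.65 (SE 0.12, adjusted p = 0.0048). Chek1, a kinase of the DNA replication checkpoint, rose from 10.2 ± 0.539 to 14.9 ± 0.712 FPKM (SD, n = 3; log2 change 0.57, SE 0.08, adjusted p = 0.0022). Pola1, the catalytic subunit of DNA polymerase alpha, rose by 0.98 (SE 0.14, adjusted p = 0.0029). Of 30 tested genes of G1/S and replication 15 rose, and of 28 of G2/M and mitosis 12 rose, with 0 lowered in either list and medians of 0.27 and 0.28. These counts fell to 4 and 3 without CK tumor 2, to 6 and 6 without PB-020/anti-PD-1 tumor 1, and to 7 for G2/M without CK tumor 3 or PB-020/anti-PD-1 tumor 2. Mki67, which marks cycling cells, had non-overlapping groups at 89.2 ± 6.32 and 112 ± 7.59 FPKM (SD, n = 3) but did not pass (adjusted p = 0.096).

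Other raised genes of small p came from varied functions. Nampt, the rate-limiting enzyme of NAD salvage, measured 39.32, 36.38 and 36.99 FPKM in CK and 65.49, 55.75 and 52.04 after treatment (log2 change 0.64, SE 0.09, adjusted p = 0.0018). Spire2, an actin nucleator, rose by 0.71 (SE 0.10, adjusted p = 0.0018), and Npm1, the abundant nucleolar protein nucleophosmin, rose from 1144 ± 60.3 to 1642 ± 198 FPKM (SD, n = 3; adjusted p = 0.0082). Krt14, a keratin of basal epithelium, rose from 113.62, 76.03 and 89.12 to 206.39, 177.93 and 165.12 FPKM (log2 change 1.04, SE 0.17, adjusted p = 0.0045). It was the 1 raised gene of 8 tested on the keratinocyte list (12.5%, against 8.35% of all genes). Krt5, the keratin with which it pairs, was at 1.79, 0.55 and 0 FPKM in CK and 0, 6.77 and 0.29 after treatment, so its level followed single tumors. Of 18 tested glycolysis genes 8 rose and 1, the muscle-type kinase gene Pfkm, fell, a call lost without CK tumor 2 or PB-020/anti-PD-1 tumor 1. The raised count was 2 without CK tumor 2, CK tumor 3 or PB-020/anti-PD-1 tumor 1, and 5 without PB-020/anti-PD-1 tumor 3. Gapdh was level at 3613 ± 268 and 3591 ± 134 FPKM (SD, n = 3; adjusted p = 0.99).

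Among the lowered genes, erythroid transcripts showed the largest folds of any list. Hbb-bs (chromosome 7, 103826523 to 103827928), an adult beta globin gene, measured 583.44, 449.81 and 334.89 FPKM in CK and 60.57, 77.84 and 48.43 in PB-020/anti-PD-1 tumors. The CK tumors were thus each at least 4 times as high as any treated tumor, with means of 456 ± 124 and 62.3 ± 14.8 FPKM (SD, n = 3) and a change of -2.86 on the log2 scale (SE 0.54, adjusted p = 0.011). Alas2, the first enzyme of heme synthesis in red cell precursors, measured 5.91, 4.74 and 3.33 FPKM in CK and 0.50, 0.37 and 0.48 after treatment (log2 change -3.36, SE 0.63, adjusted p = 0.0074). Each of the 7 tested erythroid genes fell, with a median of -2.99, and 3 of them remained called without PB-020/anti-PD-1 tumor 1. The treated tumors were also smaller than the vehicle tumors, and the part of size in this fall was not tested. Reads of Hba-a1 and Hba-a2, and of the beta globin pair, can be divided between near-identical copies. In the single treatments Hbb-bs stood at 180.90, 435.98 and 187.31 FPKM with PB-020 and at 143.77, 40.75 and 88.85 with anti-PD-1.

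Genes of the extracellular matrix fell in part. Gsn, which encodes the actin-severing and secreted protein gelsolin, measured 506.04, 637.22 and 577.91 FPKM in CK and 144.04, 179.99 and 197.48 in PB-020/anti-PD-1 tumors, which was -1.71 on the log2 scale (SE 0.28, adjusted p = 0.0056). Mmp2 (chromosome 8, 92827290 to 92853421), a gelatinase, measured 451.44, 525.67 and 466.08 FPKM in CK and 230.79, 221.20 and 259.13 after treatment, a log2 change of -1.0 (SE 0.12, adjusted p = 0.0012). Its membrane-bound activator Mmp14 fell by 0.54 (SE 0.10, adjusted p = 0.0039) and the collagen crosslinker Loxl2 by 0.68 (SE 0.12, adjusted p = 0.0045). Matn2, a matrilin, went from 29.96, 36.75 and 28.31 to 7.72, 9.71 and 10.44 FPKM (log2 change -1.75, SE 0.26, adjusted p = 0.0043). The proteoglycan genes Dcn (decorin), Vcan (versican) and Hspg2 (perlecan) fell by 1.21, 0.76 and 0.53 on the log2 scale, with adjusted p values of 0.01, 0.0024 and 0.005.

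Of 29 tested matrix glycoproteins and proteoglycans 10 fell (34.5%) and 2 rose (6.9%). Of 24 proteases and crosslinkers 6 fell (25.0%) and 1 rose (4.17%), and of 21 collagens 6 fell (28.6%) and 2 rose (9.52%). Over all genes 9.6% fell and 8.35% rose, so the lowered shares were above that background and the raised shares near or under it. The raised counts were 0 or 1 for each of these lists in every fit that left out 1 of the 6 libraries. Postn (periostin), a matricellular protein of activated stroma, measured 79.03, 56.59 and 79.21 FPKM in CK and 155.15, 199.27 and 182.27 after treatment, opposite to decorin, with an adjusted p of 0.039 that was lost in every fit leaving out 1 of the 6 libraries (up to 0.13). Col1a1, the main chain of type I collagen, was at 93.1 ± 36.3 and 153 ± 46.8 FPKM (SD, n = 3) with overlapping groups (adjusted p = 0.44). Lum (lumican) was higher in each treated tumor, at 11.15, 30.30 and 22.61 against 6.06, 5.14 and 8.97 FPKM, and did not pass (adjusted p = 0.12). The fibroblast list had 3 lowered (16.7%) and 1 raised (5.56%) of 18 tested, and its lowered count was 3 in each fit that left out 1 library. That list includes Pdgfra and Pdgfrb, which the study names among its suppressed PI3K/AKT pathway genes. Lowered matrix glycoprotein calls numbered 7 to 11 over those fits, and lowered protease calls 4 to 7.

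Of 21 tested endothelial genes 2 fell (9.52%, about the 9.6% of all genes) and 0 rose, with a median of -0.38. The lowered count was 4 without CK tumor 1, 1 without PB-020/anti-PD-1 tumors 2 or 3, and 0 without CK tumor 2 or PB-020/anti-PD-1 tumor 1. Lyve1, a hyaluronan receptor of lymphatic endothelium, fell from 3.43 ± 2.0 to 0.72 ± 0.0819 FPKM (SD, n = 3; adjusted p = 0.018) and Cldn5, a tight junction protein of vessels, from 3.83 ± 0.566 to 1.91 ± 0.401 (SD, n = 3; adjusted p = 0.02), and both calls were lost without CK tumor 2 or PB-020/anti-PD-1 tumor 1, that of Lyve1 also without PB-020/anti-PD-1 tumors 2 or 3. Pecam1 (CD31) overlapped at 18.9 ± 3.41 and 15.8 ± 1.26 FPKM (SD, n = 3; adjusted p = 0.34). Among the guidance cues, Sema5a fell from 3.80 ± 0.477 to 1.74 ± 0.146 FPKM (SD, n = 3; log2 change -1.11, SE 0.18, adjusted p = 0.0036). It was 1 of 6 lowered among 29 tested (20.7%, against 9.6% of all genes), with 2 raised (6.9%, against 8.35%). The lowered count was 2 without CK tumor 2 or PB-020/anti-PD-1 tumor 2 and 3 without PB-020/anti-PD-1 tumor 1, and the raised count was 1 in each fit that left out 1 library other than CK tumor 3.

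The lowered genes of smallest p came from many functions. Jup, which encodes the junction protein plakoglobin, measured 22.47, 25.64 and 25.22 FPKM in CK and 8.80, 10.29 and 9.91 in PB-020/anti-PD-1 tumors (log2 change -1.32, SE 0.14, adjusted p = 0.00095). Acpp, an acid phosphatase, went from 2.98 ± 0.575 to 0.72 ± 0.278 FPKM (SD, n = 3; log2 change -2.14, SE 0.24, adjusted p = 0.00095). Enpp3, an ecto-enzyme that splits extracellular nucleotides, went from 4.25, 7.99 and 5.87 to 0.51, 0.70 and 0.97 FPKM (log2 change -3.02, SE 0.43, adjusted p = 0.0031). Lbp, the lipopolysaccharide-binding protein, fell by 1.57 (SE 0.17, adjusted p = 0.0012), Cdh13, a cadherin anchored by a lipid, by 0.67 (SE 0.07, adjusted p = 0.00095), and Gpc1, a glypican, by 0.77 (SE 0.10, adjusted p = 0.0015). The 3 treated tumors lay below the 3 CK tumors in each of these genes. Rnf167, a ubiquitin ligase of endosomes, was the tightest of them after treatment, at 18.63, 18.50 and 18.45 FPKM against 26.90, 31.62 and 31.37 in CK (adjusted p = 0.00095).

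**Figure D4:**
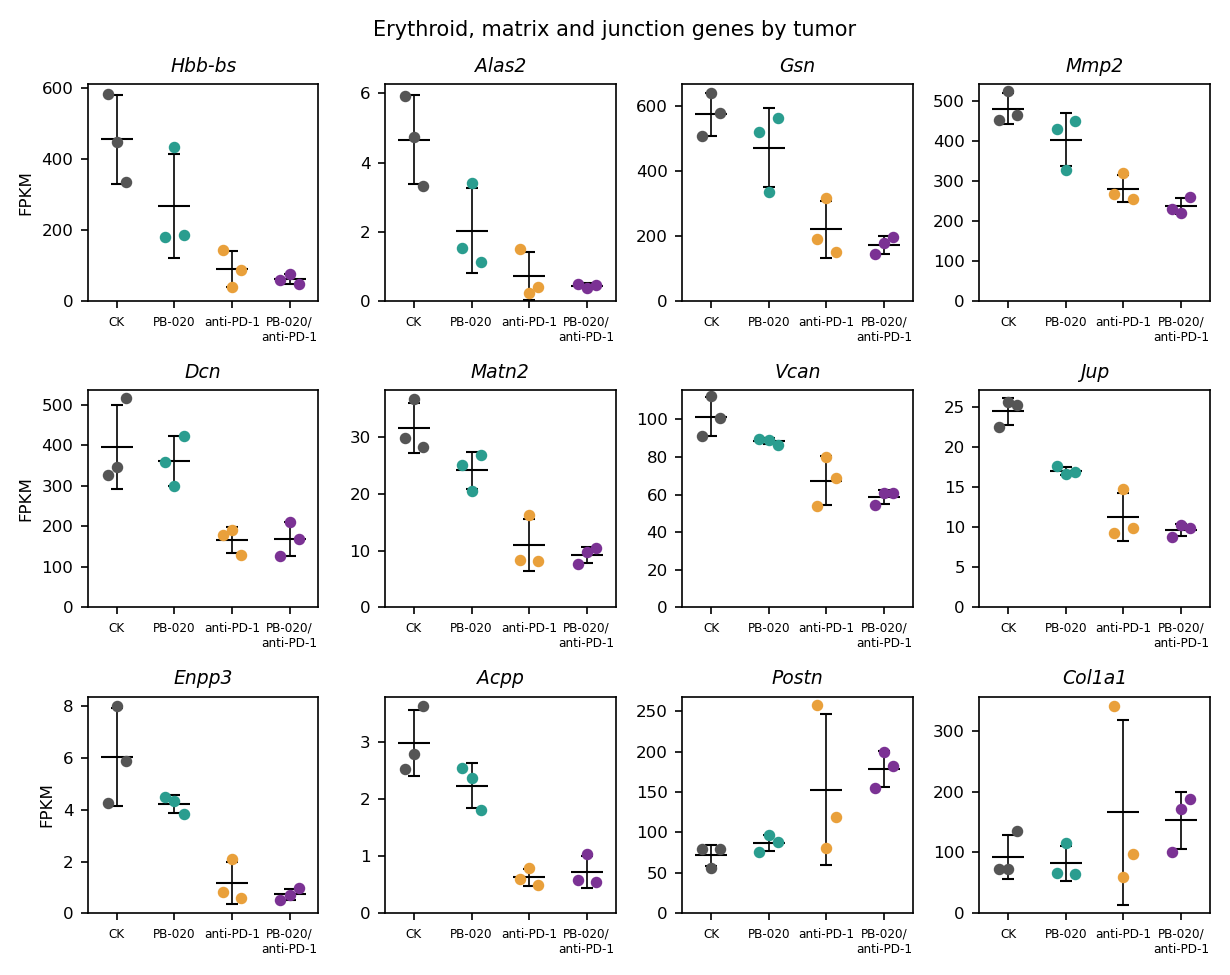
FPKM of 12 genes in each tumor of the 4 groups, on axes that start at 0, with horizontal bars for the group mean and error bars for the SD (n = 3). The PB-020/anti-PD-1 tumors lie below the CK tumors for the first 10 genes, above them for Postn, and overlap with them for Col1a1.

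Transcripts of the IGF axis, to which the receptor inhibited by PB-020 belongs, moved in a few members. Igf1r itself overlapped at 10.14, 11.63 and 11.93 FPKM in CK and 9.53, 10.09 and 10.68 after treatment (log2 change -0.13, SE 0.06, adjusted p = 0.16). Igf2r, which removes IGF2 from the cell surface, fell from 22.7 ± 1.53 to 14.6 ± 1.41 FPKM (SD, n = 3; log2 change -0.62, SE 0.10, adjusted p = 0.0031). The binding proteins Igfbp3 and Igfbp6 fell by 0.75 (adjusted p = 0.016) and 0.59 (adjusted p = 0.028), calls lost without CK tumor 2 or PB-020/anti-PD-1 tumors 1 or 2, and for Igfbp3 CK tumor 3, and for Igfbp6 CK tumor 1 or PB-020/anti-PD-1 tumor 3. In all, 3 of 16 tested members fell (18.8%, against 9.6% of all genes) and 2 rose (12.5%, against 8.35%). Against CK, anti-PD-1 alone had 2 raised and 2 lowered members, and PB-020 alone had 0 either way. Over the fits that left out 1 of the 6 libraries, the lowered count was 1 to 3 and the raised count 0 to 2. The raised members were Igf2bp1, an RNA-binding protein gene (log2 change 0.34, adjusted p = 0.016), and Pappa, a protease of IGF-binding proteins (1.79, adjusted p = 0.028). The call of Igf2bp1 was lost without CK tumors 1 or 2 or PB-020/anti-PD-1 tumor 2, and that of Pappa without CK tumors 2 or 3 or PB-020/anti-PD-1 tumors 1 or 2.

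Genes on the X chromosome were raised far more often than other genes, a pattern chosen after its values were seen and given without a test. Of 428 tested X-linked genes 152 were called raised (35.5%) and 10 lowered (2.34%), against 976 (7.47%) and 1285 (9.84%) of 13062 autosomal genes. The median log2 change was 0.30 over the X and -0.01 over the autosomes, where single chromosomes ranged from -0.08 to 0.05. In 8 stretches of nearly equal gene number along the X, the median ran from 0.23 to 0.37, so the shift was not limited to one region. By mean level it was 0.25 for 66 genes under 1 FPKM, 0.28 for 167 genes from 1 to 10, 0.31 for 166 genes from 10 to 100 and 0.33 for 29 genes from 100 up. X-linked genes made up 13.4% of all raised calls and 3.16% of the genes tested.

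Timm8a1, a chaperone of mitochondrial import, measured 42.23, 34.18 and 36.01 FPKM in CK and 73.18, 75.77 and 63.68 in PB-020/anti-PD-1 tumors (log2 change 0.94, SE 0.11, adjusted p = 0.00096). Hprt, the purine salvage enzyme, measured 76.97, 76.08 and 71.21 FPKM in CK and 110.18, 103.36 and 95.46 after treatment (log2 change 0.48, SE 0.07, adjusted p = 0.0022). Both genes lie on the X, as do Pgk1, the phosphoglycerate kinase gene, which rose from 529 ± 74.5 to 861 ± 66.8 FPKM (SD, n = 3; adjusted p = 0.0036), and Pola1 above. The X-linked ribosomal protein gene Rps4x rose from 2437 ± 94.2 to 3489.5 ± 348 FPKM (SD, n = 3; log2 change 0.53, SE 0.12, adjusted p = 0.0089). Of the 34 tested members of the cytosolic ribosomal protein list, none of them on the X, edgeR called 0, and their median was 0.10. That list does not hold every ribosomal protein gene. DESeq2 called 2 of its members raised, a fit of the 6 compared libraries alone 3, and a fit without anti-PD-1 tumor 1 called 5. Alas2 was 1 of the 10 lowered X-linked genes.

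Tumor by tumor, the median over X-linked genes of log2 CPM minus the CK mean was 0.09, -0.01 and -0.07 in CK, 0.02, 0.18 and 0.10 with PB-020, 0.25, 0.18 and 0.32 with anti-PD-1, and 0.36, 0.29 and 0.24 in PB-020/anti-PD-1 tumors. The 3 PB-020/anti-PD-1 tumors all lay above the 3 CK tumors. Against CK, 87 X-linked genes were called raised and 7 lowered with anti-PD-1, and 0 either way with PB-020. The raised count in PB-020/anti-PD-1 tumors was 54 without CK tumor 2, 77 without CK tumor 3, 59 without PB-020/anti-PD-1 tumor 1 and 78 without PB-020/anti-PD-1 tumor 2, while the median stayed between 0.26 and 0.35 over the 6 fits that left out 1 library. T cell and stromal genes moved in the same tumors, and their part in the X pattern was not tested. None of the 19 tested members of the T cell receptor and identity list lies on the X. The regulatory and helper T cell list and the CXCR3 list each had 1 tested X-linked member. These were Foxp3 (log2 change 1.30) and Cxcr3 (1.61), both called raised, and neither is named here as part of the core. The raised counts of these lists, 3 and 2, were as low as 1 in fits that left out 1 library.

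**Figure D5:**
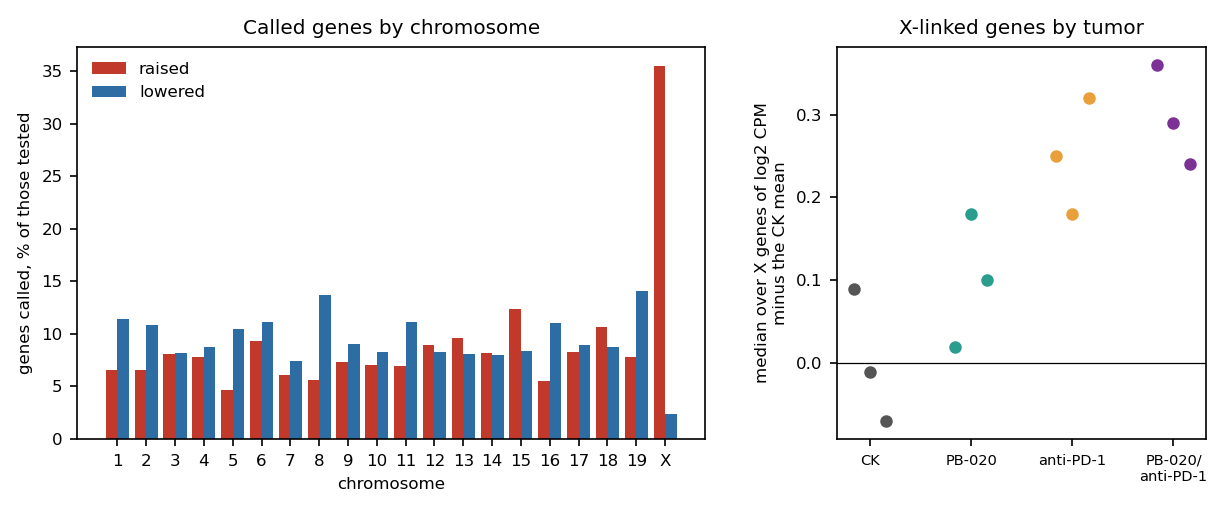
The left panel gives the percent of tested genes called raised (red) or lowered (blue) in PB-020/anti-PD-1 tumors against CK for each autosome and the X. The right panel gives, for each tumor, the median over X-linked genes of log2 CPM minus the CK mean. The X has 35.5% raised and 2.34% lowered, and autosomes range from 4.67% to 12.4% raised.

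Y-linked genes were read in every tumor although the hosts were described as female. Ddx3y, an RNA helicase gene, measured 2.09, 1.95 and 3.10 FPKM in CK and 2.96, 3.0 and 3.31 in PB-020/anti-PD-1 tumors (adjusted p = 0.21). Of 4 tested Y-linked genes 0 were called, with a median log2 change of 0.43.

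The single treatments were compared with PB-020/anti-PD-1 in the same model. Against anti-PD-1 alone, 0 genes were called by edgeR, with 984 at an unadjusted p under 0.05, and against PB-020 alone 455 were called. These comparisons share the PB-020/anti-PD-1 tumors, and the comparisons with CK share the CK tumors, so no overlap between them is given. Cd3d was at 1.20, 1.19 and 1.40 FPKM with PB-020 and at 5.74, 1.67 and 2.31 with anti-PD-1. PB-020/anti-PD-1 tumors were higher than PB-020 tumors by 1.65 on the log2 scale (adjusted p = 0.049) and than anti-PD-1 tumors by 0.23 (adjusted p = 0.93). Ido1 was at 2.27, 1.18 and 1.39 FPKM with PB-020 and at 12.98, 4.52 and 10.22 with anti-PD-1. It was higher in PB-020/anti-PD-1 than in PB-020 tumors by 2.35 (adjusted p = 0.024), and differed from anti-PD-1 by -0.16 (adjusted p = 0.95).

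Lowered genes were placed in the same way. Mmp2 was at 431.00, 328.41 and 451.18 FPKM with PB-020 and at 267.23, 319.23 and 256.30 with anti-PD-1. PB-020/anti-PD-1 tumors were lower than PB-020 tumors by 0.77 on the log2 scale (adjusted p = 0.018) and differed from anti-PD-1 tumors by -0.25 (adjusted p = 0.7). Enpp3 was at 4.5, 4.33 and 3.85 FPKM with PB-020 and at 0.82, 2.10 and 0.60 with anti-PD-1. Timm8a1 was at 48.89, 54.66 and 57.31 FPKM with PB-020 and at 55.03, 48.51 and 60.75 with anti-PD-1, with each PB-020/anti-PD-1 tumor higher than all 6, although the difference passed against neither (adjusted p = 0.66 against anti-PD-1 and 0.058 against PB-020). A p that missed the threshold does not show that tumors with and without added PB-020 were alike.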

How the data were processed

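RNA of 12 MC38 tumors, 3 per group, was sequenced by the authors as paired reads on an Illumina instrument. Reads were aligned with Bowtie2 and quantified with RSEM; the submitters' notes also name HISAT and the build GRCm38.p6. The deposited expected counts are estimated and not normalized. The deposited FPKM values divide these counts by gene length and library total, and were made by the authors. TPM values, which the authors scaled to the same total in each library, were deposited as well and not used. Groups came from the sample labels.

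Expected counts were rounded, filtered with filterByExpr (minimum count 10) and scaled by TMM. The quasi-likelihood model of edgeR 4.0.16 (R 4.3.3), with robust estimation, was fitted to 4 group means over 12 libraries. Two-sided p values over 13563 genes were corrected by the Benjamini-Hochberg method. With 3 tumors a group, each p value sets the difference between groups against the spread between tumors within groups. That spread was estimated over all 12 libraries, with information shared across genes. Standard errors cover it and counting error at this depth. Log2 changes and SE come from this model, and levels are FPKM. Gene lists are described by counts and medians, without a test.

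Named genes were the 15 called genes of smallest p with non-overlapping groups in each direction, the 10 with the largest change (mean of at least 1 FPKM in the higher group), the 10 with the largest FPKM difference, and from each list up to 6 called members a direction and its first 3. The 39 drawn PI3K/AKT genes were left out of the picks by p, by change and by FPKM difference. They were not removed from the lists or from the counts. Genes outside this rule were chosen after their values were seen, as were the X and Y chromosomes. The members and lists were chosen with earlier results of these data known. The steps were tested on simulated data drawn from these libraries, where 30 of 66 genes changed 1.5-fold and 48 of 66 changed 2-fold were called. Alternatives were DESeq2 1.42.0, limma 3.58.1 on log2(FPKM + 1) and log2(FPKM + 0.1), other scalings and filters, a replicate block and a test against a 1.5-fold change. Each of the 6 compared libraries was also left out in turn, as was anti-PD-1 tumor 1. The other libraries of the single treatments were not left out.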

Additional observations from a re-analysis of the deposited data

How the results depend on the processing

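No gene called in PB-020/anti-PD-1 tumors against CK had the opposite sign under any alternative tried. Raised and lowered calls numbered 1410 and 1379 with DESeq2 1.42.0, 1021 and 1494 with library size alone, 960 and 1094 without the filter on low counts, and 1511 and 1477 when the 6 compared libraries alone were fitted. Leaving out 1 library of the 6 moved them to between 329 and 955 raised and between 535 and 1090 lowered, and the number of X-linked raised genes from 152 to between 54 and 138. Tested against a 1.5-fold change instead of no change (glmTreat), 5 genes were raised, 10 were lowered and 0 of the X-linked genes were raised, since that test asks for a larger change by construction. Counts at the thresholds of the methods were 370 raised and 256 lowered with limma on log2(FPKM + 1), which compresses the fold of low genes, and 618 and 483 with log2(FPKM + 0.1).

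Tumors of the same number shared a number only: the correlations of their deviations between CK and PB-020/anti-PD-1 were -0.026, -0.158 and 0.034. A replicate block gave 953 raised and 1057 lowered genes, with 124 raised on the X. Without anti-PD-1 tumor 1, an alternative chosen after seeing the data, 1678 were raised and 1666 lowered, with 184 raised on the X. Depth limits genes under 1 FPKM, of which 72 of 1714 were called raised and 48 lowered.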
